A study of Mus musculus with 3 samples.

Results

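Aldh1a3, Igf2bp1, Ephb2, Pbk, Qpct and Wfdc1 are the 6 genes that the study named, outside the pigmentation program, as lowered in melan-a cells by siRNA against Tfap2a. The TFAP2A peaks around them are described here from 2 ChIP-seq replicates. A peak was taken when its summit, the position of highest signal, lay in the gene body or within 100 kb of it. This gave 38 of 18528 peaks in replicate 1 and 41 of 21459 in replicate 2, around 6 of 22367 protein-coding genes. The gene models were those of GENCODE mouse version M1 on build mm9, and every coordinate here is of that build.

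Melan-a is an immortalised line of mouse melanocytes, which the labels trace to normal embryonic skin. All 3 samples of the series, the 2 ChIP replicates and the 1 input of unprecipitated chromatin, came from this single line and carried the same Cdkn2a tm1RDp/tm1RDp genotype. The cells were grown with serum, a phorbol ester (12-O-tetradecanoylphorbol 13-acetate) and cholera toxin, and the labels record no treatments. Chromatin was fixed with formaldehyde, sonicated and precipitated with an antibody against AP-2alpha, another name of TFAP2A. The deposited lists held only called peaks, so the number of reads behind a value was unknown and a gene without a peak cannot be said to lack TFAP2A. There was no second condition among the tables, so no difference between conditions was tested. The knockdown was not part of these files, and no expression value was analysed here, so neither the lowering of these genes nor markers of the cell type were checked. The spread over 2 replicates of 1 cell line is the only error available.

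TFAP2A belongs to a family of transcription factors that act in the neural crest, the embryonic source of melanocytes, and in the epidermis. These proteins bind DNA as dimers at palindromic, GC-rich sequences, both at promoters and at enhancers far from them. A gene lowered when such a factor is depleted can be a direct target or lie downstream of one, and a peak nearby does not by itself tell these apart. The 6 genes have little in common in what they encode. Aldh1a3 and Qpct encode enzymes, Wfdc1 a secreted protein, Ephb2 a receptor, Pbk a protein kinase and Igf2bp1 an RNA-binding protein.

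The DNA under the summits is shown first, because the presence or absence of a TFAP2 site there runs through the results. For each gene the strongest peak shared by both replicates is given, with the shared peaks at an annotated start of the gene, and, where the strongest lay closer to the start of another gene, the strongest of those closest to its own. Each sequence runs 5′ to 3′ on the strand of the named gene, holds the replicate 1 summit with 50 bp to each side, and was read from mm9. Distances in the names are from the 5′ end of the gene, positive in the direction of transcription. Capitals mark a TFAP2 site, written GCCNNNGG and searched on both strands, with overlapping matches counted once. In the sequence of Wfdc1 at 42.9 kb, which has no match to GCCNNNGG, capitals mark an AP-1 site (TGACTCA or TGAGTCA) instead.
Aldh1a3 at 61.4 kb, chr7:73510995-73511095, minus strand: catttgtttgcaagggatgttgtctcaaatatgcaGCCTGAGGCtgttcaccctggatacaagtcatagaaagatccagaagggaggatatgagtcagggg
Aldh1a3 at 13.8 kb, chr7:73558593-73558693, minus strand: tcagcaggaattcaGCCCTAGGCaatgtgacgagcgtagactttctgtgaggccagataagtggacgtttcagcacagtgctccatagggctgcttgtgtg
Qpct at 40.9 kb, chr17:79492122-79492222, plus strand: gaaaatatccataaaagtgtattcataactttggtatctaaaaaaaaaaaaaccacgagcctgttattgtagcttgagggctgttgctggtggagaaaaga
Qpct at 652 bp, chr17:79451848-79451948, plus strand: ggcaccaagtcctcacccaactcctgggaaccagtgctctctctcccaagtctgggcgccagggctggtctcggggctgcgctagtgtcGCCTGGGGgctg
Wfdc1 at 42.9 kb, chr8:122233230-122233330, plus strand: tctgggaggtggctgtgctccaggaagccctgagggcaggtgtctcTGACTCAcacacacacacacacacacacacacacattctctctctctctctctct
Wfdc1 at 10.1 kb, chr8:122200441-122200541, plus strand: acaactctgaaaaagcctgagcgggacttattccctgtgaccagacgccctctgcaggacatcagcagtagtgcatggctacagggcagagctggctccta
Ephb2 at 54.0 kb, chr4:136337860-136337960, minus strand: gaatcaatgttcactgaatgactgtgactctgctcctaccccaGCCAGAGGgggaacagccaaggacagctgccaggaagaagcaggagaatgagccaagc
Pbk at -66.6 kb, chr14:66357990-66358090, plus strand: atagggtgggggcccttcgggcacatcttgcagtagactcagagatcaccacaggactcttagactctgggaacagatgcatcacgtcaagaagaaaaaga
Pbk at -43.7 kb, chr14:66380935-66381035, plus strand: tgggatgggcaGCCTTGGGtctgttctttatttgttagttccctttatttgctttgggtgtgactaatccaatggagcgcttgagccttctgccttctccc
Igf2bp1 at 23.2 kb, chr11:95844015-95844115, minus strand: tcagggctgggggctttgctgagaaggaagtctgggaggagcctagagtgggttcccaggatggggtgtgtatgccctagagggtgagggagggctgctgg
The strongest peaks of Aldh1a3 and Ephb2 held a site near the summit, and those of Qpct, Wfdc1, Pbk and Igf2bp1 held none within 50 bp of the replicate 1 summit. This absence depends on the letters searched. The peaks of Wfdc1 and Pbk did hold the shorter CCNNNGG and the form with a 4-base gap, GCCNNNNGG, within that distance. Those of Qpct and Igf2bp1 held neither. The AP-1 site of Wfdc1 is followed by a run of CA and CT repeats.

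Every gene had TFAP2A peaks found in both replicates. Of the 79 peaks in the windows, 33 of replicate 1 had 1 bp or more in common with a peak of replicate 2 and are called shared. Of these, 2 lay in a proximal region, taken from 5 kb upstream to 1 kb downstream of an annotated start of the gene, and they belonged to Qpct and Igf2bp1. Thus 2 of 6 genes had a proximal shared peak, against 17% of all protein-coding genes. The proximal region is a small part of each window, the shortest of which was 212 kb. The proximal share of peaks over the windows of all genes was not computed. A shared peak within 100 kb was present at 6 of 6 genes, against 71.7% of all, and in the gene body at 5 of 6, against 20.9%. With 6 genes these counts are given as a description. Summits of 2 shared peaks lay within 10 kb of the 5′ end of the gene, 16 lay from 10 to 50 kb away, and 15 lay farther than 50 kb. Upstream of the gene lay 8, in its body 8, and past its 3′ end 17.

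**Figure D1:**
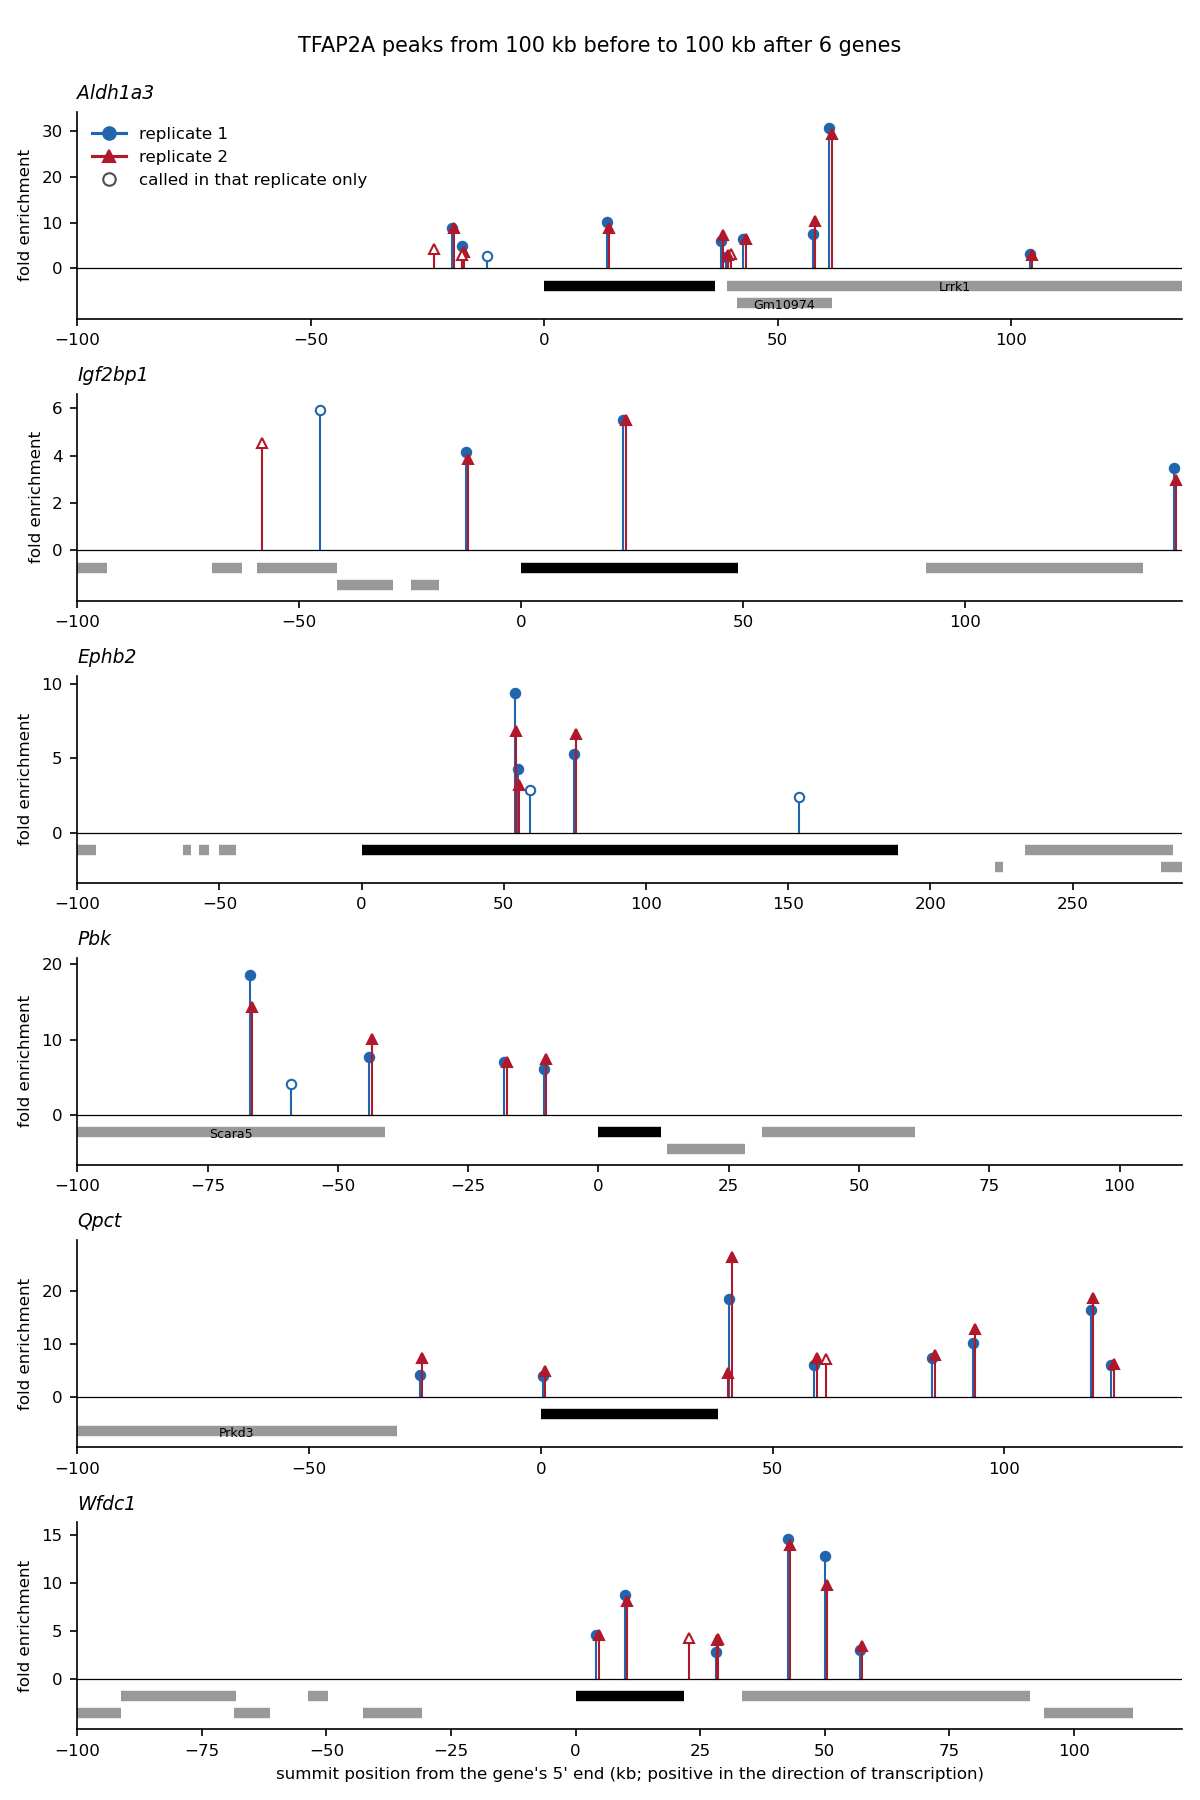
Position of each peak summit (x axis, kb from the 5′ end of the gene) and its fold enrichment (y axis) for the 6 genes, with blue circles for replicate 1 and red triangles for replicate 2, drawn slightly apart so that both can be seen. Filled symbols are peaks that overlap a peak of the other replicate, open symbols are peaks of 1 replicate, the black bar is the gene and grey bars are neighbouring protein-coding genes, of which Lrrk1, Gm10974, Scara5 and Prkd3 are labelled. The peaks of Pbk stand upstream of it, those of Ephb2 inside it, and the tall peaks of Aldh1a3, Qpct and Wfdc1 past the 3′ end.

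Aldh1a3 (ENSMUSG00000015134.8, chr7:73535778-73572403, minus strand) encodes a retinaldehyde dehydrogenase, an enzyme that makes retinoic acid. It had 9 shared peaks, or 3.80 per 100 kb of window, a density that 3.06% of all protein-coding genes reached. The strongest lay 61.4 kb from the 5′ end and 24733 bp past the 3′ end (chr7:73510515-73511501). Replicate 1 gave it a fold enrichment over background of 30.7 and replicate 2 gave 29.4, with a mean of 30.1 ± 0.864 (SD, n = 2). This was the strongest peak of all 6 windows, and 0.621% of all protein-coding genes had a shared peak at least as strong in their window. It sat in an intron of Lrrk1, a kinase gene on the same strand, and 254 bp from the start of the gene model Gm10974, so the start of Aldh1a3 was not the closest to it.

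Closer to Aldh1a3 the peaks were weaker. In its body the only shared peak was intronic at 13.8 kb (chr7:73558367-73558999), 5478 bp from an internal start of a coding transcript, with an enrichment of 10.3 and 8.92 in replicates 1 and 2, a mean of 9.59 ± 0.938 (SD, n = 2). Upstream, a peak at -19.5 kb (chr7:73591601-73592190) had 8.92 in either replicate, and a second at -17.3 kb had 4.80 and 3.69. These 3 were the only shared peaks closest to the start of Aldh1a3. The other 5 lay from 38.1 to 104.3 kb at or inside Lrrk1, 1 of them 14 bp from its start, and their mean enrichments ran from 2.78 to 9.03. A TFAP2 site lay within 50 bp of the replicate 1 summit in 6 of the 9.

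Qpct (ENSMUSG00000024084.6, chr17:79451246-79489583, plus strand) encodes glutaminyl cyclase, which turns N-terminal glutamine of peptides into pyroglutamate. It was the only gene with a shared peak within 1 kb of its own 5′ end, 652 bp downstream in an intron (chr17:79451713-79452118). The replicates gave an enrichment of 3.97 and 4.98, with a mean of 4.47 ± 0.712 (SD, n = 2), which was the lowest of its 8 shared peaks. A TFAP2 site lay 42.5 bp from the summit, centre to summit.

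The strong peaks of Qpct followed its 3′ end, in a stretch with no other protein-coding gene in the window. The first, at 40.9 kb and 2589 bp past the 3′ end (chr17:79491635-79492556), had 18.5-fold enrichment in replicate 1 but 26.5-fold in replicate 2 (mean 22.5 ± 5.69, SD, n = 2), the widest absolute gap between replicates among the 33. Replicate 2 had a further, weaker peak of 4.54 touching the same replicate 1 peak. A peak at 119.0 kb had 16.4 and 18.8, and another at 93.5 kb had 10.2 and 12.8, both with a site. All 8 shared peaks of Qpct were higher in replicate 2. The density of 3.36 per 100 kb was reached by 4.77% of genes, and the strength of its strongest peak by 2.30%. Qpct had the closest start for 7 of the 8, and 6 of the 8 held a TFAP2 site.

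Wfdc1 (ENSMUSG00000023336.5, chr8:122190423-122212122, plus strand) encodes a secreted protein with a WAP domain, a fold found in protease inhibitors. It had 6 shared peaks, or 2.71 per 100 kb, a density reached by 8.83% of genes. Introns of the gene held 2 of them. The peak at 10.1 kb (chr8:122200297-122200713) had an enrichment of 8.69 and 8.09 in the replicates, with a mean of 8.39 ± 0.424 (SD, n = 2), and the peak at 4.41 kb had 4.62 and 4.60. Neither had a TFAP2 site at a summit, and their values barely differed between replicates.

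The strongest peak in the Wfdc1 window lay at 42.9 kb, 21158 bp past the 3′ end (chr8:122232933-122233637). It sat in an intron of a neighbouring gene, whose name is not reported here. Its enrichment was 14.6 and 13.9 in the replicates, with a mean of 14.3 ± 0.451 (SD, n = 2). The next lay at 50.3 kb, with 12.8 and 9.82, followed by weak peaks at 57.3 kb, with 3.04 and 3.44, and at 28.3 kb, with 2.84 and 4.15. A TFAP2 site was found in 3 of these 4, all but the strongest. All 4 were closer to the start of the neighbouring gene than to that of Wfdc1.

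Ephb2 (ENSMUSG00000028664.8, chr4:136203454-136391903, minus strand) encodes a receptor tyrosine kinase for ephrin-B ligands. All 3 of its shared peaks were intronic and more than 50 kb from its 5′ end, and none lay outside the gene. The peak at 54.0 kb (chr4:136337597-136338377) had 9.42-fold enrichment in replicate 1 and 6.81-fold in replicate 2 (mean 8.11 ± 1.84, SD, n = 2). A peak 1.28 kb farther on, at 55.3 kb, had 4.26 and 3.18, and the peak at 74.9 kb had 5.26 and 6.62. Each held a TFAP2 site within 50 bp of the replicate 1 summit, but at 54.0 kb none lay within 50 bp of the replicate 2 summit. Over its long window the density was 0.772 per 100 kb, a value that 51.0% of genes reached, and 40.3% of all genes had a shared peak at least as strong as 8.11.

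Pbk (ENSMUSG00000022033.3, chr14:66424674-66436659, plus strand) encodes a serine/threonine kinase active in mitosis. It was the only gene with no shared peak in its body. Its 4 shared peaks all lay upstream, at -66.6, -43.7, -17.8 and -10.2 kb. The farthest (chr14:66357416-66358974) was the strongest and, at 1559 bp, far wider than the median of 450 bp over all shared peaks. Its enrichment was 18.6 in replicate 1 and lower, 14.4, in replicate 2 (mean 16.5 ± 3.02, SD, n = 2), and 6.99% of all genes had a shared peak at least as strong. It lay in an intron of Scara5, a ferritin receptor gene, 62726 bp from an internal start of Scara5, which was thus slightly closer than the start of Pbk, whereas the 5′ end of Scara5 was farther away than that of Pbk. The peak at -43.7 kb, near the 3′ end of Scara5, had 7.74 and 10.0, and the peaks at -17.8 and -10.2 kb, between the genes, had 7.02 and 6.98, and 6.08 and 7.44. These 3 had Pbk as the closest start, and a TFAP2 site lay at -43.7 and -10.2 kb but not at -17.8 kb. The density, 1.89 per 100 kb, was reached by 20.6% of genes.

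Igf2bp1 (ENSMUSG00000013415.3, chr11:95818477-95867254, minus strand) encodes a protein that binds mRNAs and affects their stability and translation. It had 3 shared peaks, all below the median of 6.22 over all shared peaks. The strongest (chr11:95843884-95844207) lay in an intron at 23.2 kb, with near-equal enrichments of 5.49 and 5.50 in the replicates, a mean of 5.50 ± 0.00873 (SD, n = 2), and held no TFAP2 site. It counted as proximal because 3 non-coding processed transcripts of the gene start within 1 kb, the closest of them 140 bp away, whereas the only coding start is at the 5′ end. A peak at -12.3 kb had 4.14 and 3.87 and was closer to the start of Gip, an incretin hormone gene, and a peak at 147.2 kb had 3.46 and 2.96. Its density was 1.21 per 100 kb, reached by 36.3% of genes, and 59.8% of all genes had a shared peak at least as strong as its strongest.

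The 12 peaks found in 1 replicate were, like the shared ones, spread over the 6 windows. Replicate 1 had 5 of them, with enrichments from 2.36 to 5.91 and a median of 2.86, and replicate 2 had 7, from 2.98 to 7.14 with a median of 4.21. Both medians were below those of the shared peaks in the windows, 6.08 in replicate 1 and 7.19 in replicate 2. The highest were a replicate 2 peak of 7.14 at 61.3 kb from the 5′ end of Qpct and a replicate 1 peak of 5.91 at -45.1 kb from Igf2bp1, the latter above every shared peak of that gene. All but 1 of them, 11 of the 12, had a TFAP2 site within 50 bp of the summit, against 50.2% of all peaks of 1 replicate only. Of the window peaks 86.8% were shared in replicate 1 and 82.9% in replicate 2, against 87.1% and 76.0% of the full lists.

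As a set, the window peaks had a median strength close to that of all shared peaks. The 33 shared peaks had a median enrichment, as the mean of the replicates, of 6.72, with quartiles of 4.47 and 9.03, against 6.22 for all shared peaks, with quartiles of 4.64 and 8.99. Of the 33, 5 exceeded the 90th percentile of all shared peaks, 12.8, and these 5 belonged to Aldh1a3, Qpct, Pbk and Wfdc1. The median density of the 6 genes was 2.30 shared peaks per 100 kb, against 0.816 over all protein-coding genes, whose quartiles were 0 and 1.63. The median of their strongest peaks was 15.4, against 8.67 over all genes with a shared peak. The highest value in a window tends to rise with the number of peaks in it, and no adjustment was made for that number. The 6 genes were spread out, with Igf2bp1 and Ephb2 near the middle of all genes in density and below the median of 8.67 in their strongest peak, and Aldh1a3 and Qpct near the top in both.

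**Figure D2:**
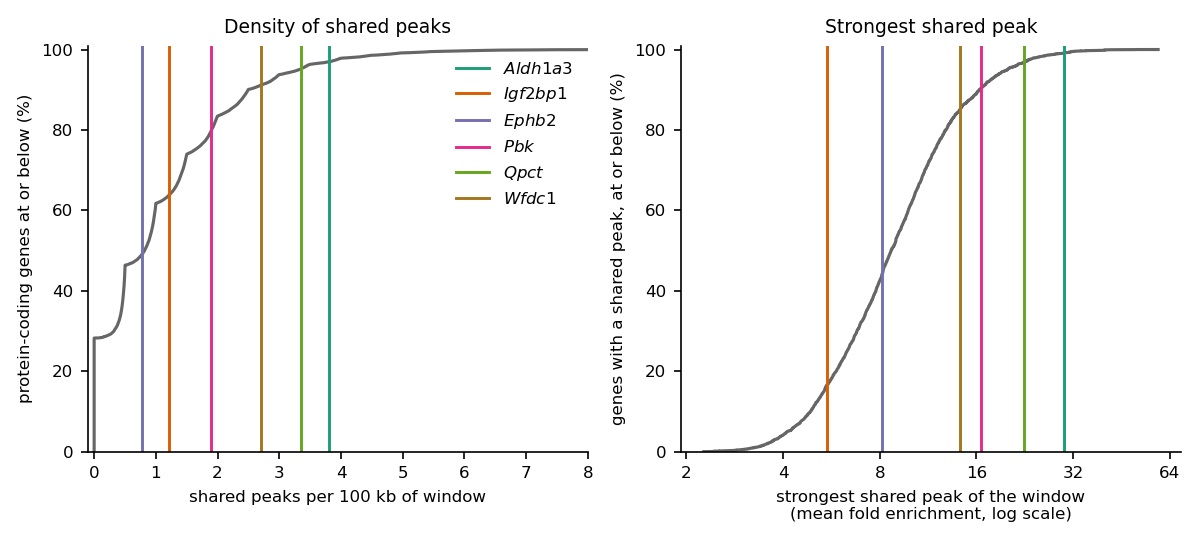
Cumulative share of all protein-coding genes (y axis, percent, grey line) by the number of shared peaks per 100 kb of window (left) and by the mean fold enrichment of the strongest shared peak in the window (right, log scale, genes with at least 1 shared peak), with a vertical line for each of the 6 genes. Aldh1a3 and Qpct stand far to the right in both panels, whereas Ephb2 and Igf2bp1 stand near the middle in density and at 8.11 and 5.50 in strength.

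The replicates gave much the same values at these peaks. The ratio of replicate 2 to replicate 1 ran from 0.723 to 1.76 with a median of 1.00, and 0 of the 33 pairs fell outside the central 95% of all pairs, 0.656 to 1.83. The value was higher in replicate 2 in 18 of the 33. Across the 33 pairs Spearman's rho was 0.919, against 0.847 across all pairs. Peaks are not independent replicates, and these correlations describe 2 libraries. Summits lay a median of 22 bp apart, and 87 bp at most.

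**Figure D3:**
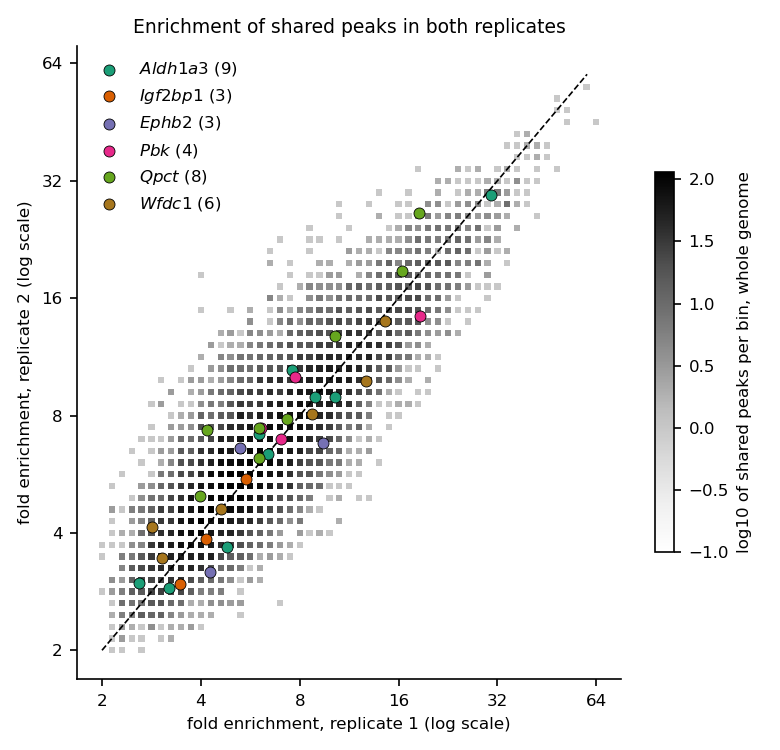
Fold enrichment in replicate 1 (x axis) and replicate 2 (y axis), both on log scales, for the 33 shared peaks of the 6 genes (coloured circles, number of peaks in brackets) over all shared peaks (grey squares, darker where more peaks fall in a bin) with the line of equal values dashed. The coloured circles lie within the spread of the grey squares, and those of Qpct lie above the line.

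The shared peaks were split between those closest to the start of the gene whose window held them and those closer to a neighbour. The closest start of a protein-coding gene was that of the named gene for 19 of the 33, or 57.6% (exact Clopper-Pearson 95% interval 39.2 to 74.5), and that of another for 14. Over all pairs of a gene and a shared peak within 100 kb, 26.3% had that gene as the closest, a share that counts every peak once for each gene around it and so depends on how dense the genes are. The strongest peak was closer to another start in 3 of the 6 genes, Aldh1a3, Pbk and Wfdc1, with internal starts counted, on which the place of Pbk among them rests. The 19 had a median enrichment of 7.002 and the 14 a median of 6.08, and a TFAP2 site lay in 12 and 9 of them. Proximal to the start of any gene were 7 of the 33, or 21.2% (8.98 to 38.9), against 28.8% of all shared peaks, and of the others 13 were in introns, 13 between genes and 0 in exons. Which gene a peak acts on was not measured.

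The TFAP2 consensus was found no farther than 50 bp from the summit in 21 of the 33 shared peaks, or 63.6% (exact 95% interval 45.1 to 79.6), against 57.1% of all shared peaks. In equally long flanks 400 bp to the left and to the right of the summits it was found in 6 and 9 of the 33, and over all shared peaks in 15.3% of such flanks. Where present, the site closest to the summit had its centre a median of 10.5 bp away. It was found at the summits of both replicates in 19 peaks, at 1 of them in 3 and at neither in 11. Of the 10 strongest shared peaks 5 held a site, and of the 10 weakest 8 did. Over all shared peaks the strongest 10% held it in 62.2% of cases and the weakest 10% in 58.0%.

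**Figure D4:**
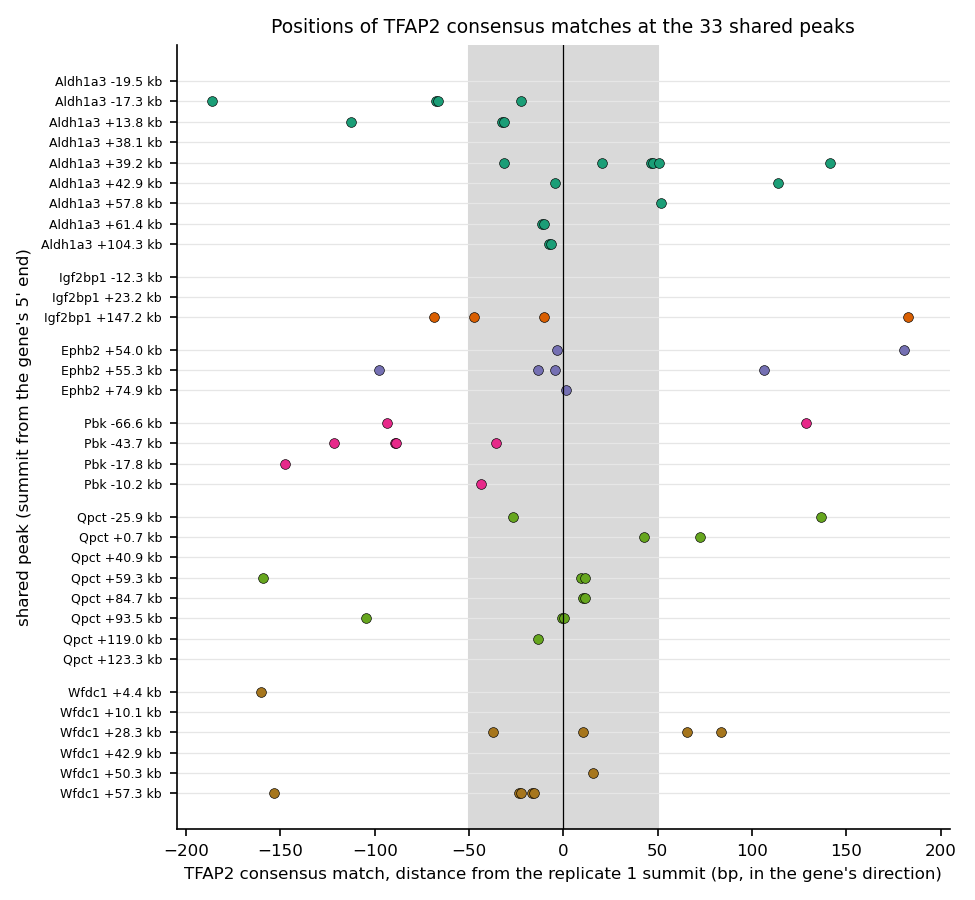
Distance of each match to the TFAP2 consensus from the replicate 1 summit (x axis, bp, in the direction of the gene) at the 33 shared peaks (y axis, named by gene and distance from its 5′ end), with the 50 bp to each side of the summit shaded. A palindromic match, read on both strands, gives a pair of adjacent points. Matches gather in the shaded band, and the rows of Qpct at 40.9 kb, Wfdc1 at 10.1 and 42.9 kb and Igf2bp1 at 23.2 kb are among those with none.

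Sites of other factors were few. AP-1 sites, bound by FOS and JUN proteins, were in 5 of the 33, or 15.2% (5.11 to 31.9), against 6.36% of all shared peaks. They lay at Aldh1a3 61.4 kb, Ephb2 74.9 kb, Igf2bp1 -12.3 kb, Qpct 84.7 kb and Wfdc1 42.9 kb, in the windows of 5 genes, all but Pbk. A TEAD site (GGAATG) was in 3, or 9.09%, against 10.5%, and a SOX site (ACAAAGG or ACAATGG) was in 1, or 3.03%, against 5.21%. TCATGTG, the M-box that MITF can bind, and the E-box CACGTG were at 0 of the 33 replicate 1 summits, against 2.01% and 1.78% of all shared peaks. For a count of 0 of 33, the exact 95% interval reaches up to 10.6%, and a limit of 3 counts gives 9.09%. Among the replicate 2 summits of these peaks the M-box was found at 1, that of Qpct at 123.3 kb, and in 4 left and 1 right flanks of the 33. All were searched on both strands.

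The promoters of the genes other than Pbk held TFAP2 sites, whether or not a peak was called there. In the 300 bp from 250 bp before to 50 bp after the annotated 5′ end, a site was present at 5 of 6 genes, against 58.2% of all protein-coding genes. Wfdc1 had 4, Aldh1a3 3, Igf2bp1 2, Ephb2 and Qpct 1 each, and Pbk 0. Among these, only Qpct had a shared peak within 1 kb of its 5′ end. For the other 4 the letters were there and no shared peak was.

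Partners and paralogs of the genes were counted in the same way. Of 17 genes of retinoic acid synthesis, breakdown, binding and reception, 7 had a proximal shared peak, or 41.2%, against 17% of all genes. Within 100 kb, 14 of the 17 had a shared peak, or 82.4%, against 71.7%. The strongest proximal peaks of that list were at the receptor genes Rarb, with an enrichment of 5.71 in replicate 1 and 11.6 in replicate 2, and Rarg, with 8.67 and 8.51, and at Aldh1a1, a paralog of Aldh1a3, with 8.62 and 7.47. Of 7 genes for other EphB receptors and the ephrin-B ligands, 1 had a proximal peak, Efnb1, with 4.04 and 4.48, and 3 had a shared peak within 100 kb. None of 9 mitotic partners of Pbk had a proximal shared peak, although 7 had a shared peak within 100 kb. The Igf2bp1 paralogs Igf2bp2 and Igf2bp3, the Qpct paralog Qpctl, and the WAP-domain genes Wfdc2, Wfdc3 and Slpi likewise had none proximal and all had at least 1 within 100 kb. Over these 39 genes together 8 had a proximal peak, or 20.5%, against 17% of all genes, and 30 had a peak within 100 kb, or 76.9%, against 71.7%. Of the 8, 7 were in the retinoic acid list, so the pooled share does not describe each list.

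The other genes that the study listed after knockdown were counted too, those lowered and those raised. Of the 21 other lowered genes found in the annotation, 10 had a proximal shared peak, Tfap2a, the siRNA target itself, among them, or 47.6%, beside 17% of all genes, and 20 had a shared peak within 100 kb, beside 71.7% of all genes. Of 34 raised genes found there, 14 had a proximal peak, or 41.2%, and 30 had one within 100 kb. The median density was 2.13 and 1.46 shared peaks per 100 kb, beside 2.30 for the 6 genes and 0.816 for all genes. The study named peaks at some of these genes itself, so the counts are not independent evidence.

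The limit of 100 kb left out some peaks as strong as those inside it. The shared peak farthest from the gene body but inside the limit was 98.5 kb away at Igf2bp1, with a mean enrichment of 3.21, and between 35.6 and 85.0 kb away at Aldh1a3, Pbk, Qpct and Wfdc1, and at Ephb2 none lay outside the body. The nearest outside were 104.1 kb from Wfdc1, with 12.2, 110.7 kb from Pbk, with 7.03, 114.7 kb from Qpct, with 3.88, 121.2 kb from Igf2bp1, with 11.0, 133.1 kb from Ephb2, with 6.66, and 159.1 kb from Aldh1a3, with 9.61.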

How the data were processed

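TFAP2A ChIP-seq of melan-a cells was measured in 2 replicates, and the input, 1 sample, had no table used here. Per the labels the replicates came from independent experiments on 1 line. The submitters' processing notes name BWA, MACS 1.4.2 and mm9, and which caller setting gave the lists is not given in the sources used here. The lists name no caller version, and their layout with q-values is more usual of later MACS versions, so how enrichments and q-values were computed is uncertain. The authors deposited 1 peak list per replicate, called separately, with a fold enrichment (a ratio over background), the -log10 of the p-value and of the q-value, and a score. As deposited, this score was 10 times the -log10 p without its decimals, so it was not used. The lowest -log10 q was 2.64, and read depth was unknown.

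Peaks were taken where the summit lay in a gene body or within 100 kb of it, and were shared where peaks of replicates 1 and 2 had 1 bp or more in common, after the study's methods. Enrichments of a pair were those of peaks that were each other's largest overlap. Location, sites and closest starts were read at the replicate 1 summit on the 16099 shared peaks of assembled chromosomes. The closest start was the nearest annotated start, of any transcript, of a protein-coding gene. Named were the 6 genes, their proximal and strongest shared peaks with the closest neighbour, which for some peaks is not reported here, and at most 3 examples per partner list. The printed peaks closest to a gene's own start, the other peaks placed one by one and the peaks of 1 replicate were chosen after their values were seen. Members and lists were chosen with earlier results of these data known. Tfap2a was matched as Tcfap2a. No test was made, as there was 1 condition; counts and medians stand beside those of all genes or peaks. Intervals are exact Clopper-Pearson 95% intervals and, like the limit for a count of 0 (3 counts), cover counting error only. Alternatives were thresholds, overlap rules, windows, starts, site definitions and each replicate alone. Python 3.11.15 with pandas 2.3.3, numpy 2.4.6, scipy 1.17.1, pysam 0.24.0 and matplotlib 3.10.9 and samtools 1.23.1 were used, and the overlap and site counts were tested on simulated data.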

Additional observations from a re-analysis of the deposited data

How the results depend on the processing

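The 33 shared peaks in the windows fell to 20 when both lists were cut to their upper 50% by enrichment, to 13 in windows of 10 kb and to 19 when only peaks closest to the start of the named gene were kept, and were 38 to 41 in a single replicate's list. The 2 genes with a proximal shared peak fell to 0 in the upper 50%, where 6.40% of all genes had one, to 1 when only starts of coding transcripts were used and to 1 when only the 5′ end of the gene was used, where 13.9% of all genes had one. In both of these narrower definitions the gene lost was Igf2bp1. Igf2bp1 also had no shared peak in the upper 50%, which left 5 of 6 genes with a peak within 100 kb, against 53.8% of all genes at that setting. In the upper 50% the count fell from 3 to 1 at Ephb2 and from 6 to 3 at Wfdc1, and in the list of replicate 1 alone Ephb2 had 5. The median enrichment relative to all shared peaks was 1.08 and became 1.39 with -log10 p in its place, and the cause was not tested. The share with a TFAP2 site, 63.6%, became 55.0% in the upper 50%, 69.7% within 100 bp, 61.8% at replicate 2 summits, 18.2% with GCCNNNGGC, 81.8% with CCNNNGG, 57.6% with GCCNNNNGG, and 65.9% to 68.4% in a single replicate's list. The shorter consensus, the 4-base gap, the 5′ end rule and the closest-start rule were chosen after seeing the data. The remaining alternatives left these counts over the 6 genes within 1.5 times their values and the median enrichment within 1 SD between replicates. No paired analysis was possible because the input has 1 sample and no table used here, so only 1 group has replicates. Read depth was unknown, so peaks absent from 1 or both lists may lie below a threshold.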
